A study of Mus musculus with 39 samples.

Results

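The comparison described here is that of lymph node dendritic cells (DC) taken 24 h and 12 h after immunization with CpG-only particles. It holds 4 of the 39 libraries of the series, 2 at 24 h and 2 at 12 h, chosen by their titles. DC came from popliteal and inguinal lymph nodes of wild-type C57BL/6 mice aged 8 to 12 weeks, which had received a sub-cutaneous hock injection of nanoparticles that carry CpG and no OVA. The other 6 libraries of the same time course, which enter the fit, are 2 each at 24 h and 12 h after particles that carry OVA with CpG, and 2 from non-immunized mice. The series' design states that immunized mice had been engrafted with OVA-specific OT-I and OT-II T cells and that particles also held a rhodamine dye, but the labels do not say for each library whether the mouse carried those T cells. They also do not say whether the libraries of a group came from separate mice or from pooled ones, so each p-value measures only how these libraries vary, which may be technical. DC had been enriched by negative selection and sorted, and the gates are not given in the sources used here. PolyA RNA was captured, and each library was built from an amount set by the level of the actin beta transcript.

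Dendritic cells take up antigen, carry it to lymph nodes and present it to T cells. CpG, a DNA motif typical of bacteria, is sensed inside endosomes by the receptor TLR9, which leads to type I interferon and inflammatory cytokines and to the maturation of the cell. Maturing DC display more MHC and costimulatory molecules and, in skin, acquire the chemokine receptor CCR7 to travel along lymph vessels, while injected adjuvants also bring neutrophils and monocytes into the draining node.

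Total counts per library were between 612017 and 1329203. The pair of libraries at 24 h after CpG-only particles differed more than any other pair of the time course, with a chi-square of 6.00 per degree of freedom over genes, against 2.83 for the pair at 12 h and between 2.24 and 2.94 for the other 3 groups. Replicate 2 at 24 h held more B cell transcripts and replicate 1 more granulocyte and monocyte transcripts, as given below. DC markers were present in all 4 libraries. Flt3, the receptor for the DC growth factor FLT3L, had 85.0 and 58.7 CPM at 24 h, against 101 and 109 CPM at 12 h. Itgax, which encodes CD11c, had 29.4 and 18.8 CPM at 24 h, against 27.0 and 103 CPM at 12 h, and the MHC class II gene H2-Ab1 had 995 and 2436 CPM at 24 h, against 1460.3 and 3173 CPM at 12 h. Zbtb46, a transcription factor that marks conventional DC, had only 3 and 5 counts at 24 h, against 10 and 4 counts at 12 h, and was not tested. Siglech, a defining marker of plasmacytoid DC, had 0 counts in these 4 libraries and at most 1 in any library of the time course. Other markers on that list were present. Ccr9 had 219 and 116 CPM at 24 h, against 93.5 and 104 CPM at 12 h, and Bst2 had 1131 and 1327 CPM, against 984 and 661 CPM. The summed level of the 10 plasmacytoid DC markers was 1894 and 2401 CPM at 24 h, against 1591 and 1512 CPM at 12 h. CPM denotes a count divided by the total of its library and scaled to 1000000.

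Over the 12 h that separate the groups, transcripts of granulocytes and monocytes fell steeply, several inflammatory chemokine and cytokine genes fell, and interferon-induced GTPase genes, some T cell genes and some heat shock genes rose. Of 9428 genes tested with edgeR's quasi-likelihood test, 719 (7.63% of those tested) had a Benjamini-Hochberg adjusted p under 0.05 and are called here. Of these, 317 genes (3.36%) were higher at 24 h than at 12 h and 402 genes (4.26%) were lower. Falls were larger than rises: the median log2 fold change of 24 h over 12 h was -1.77 among lower genes and 1.09 among higher ones, and 172 lower genes against 17 higher ones had moved more than 4-fold. The median over all genes tested was 0.02, and this background holds for the list medians below. The number of calls depends on single libraries. It was 422 and 274 without replicate 1 and replicate 2 at 12 h, and 1148 and 434 without replicate 1 and replicate 2 at 24 h.

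**Figure D1:**
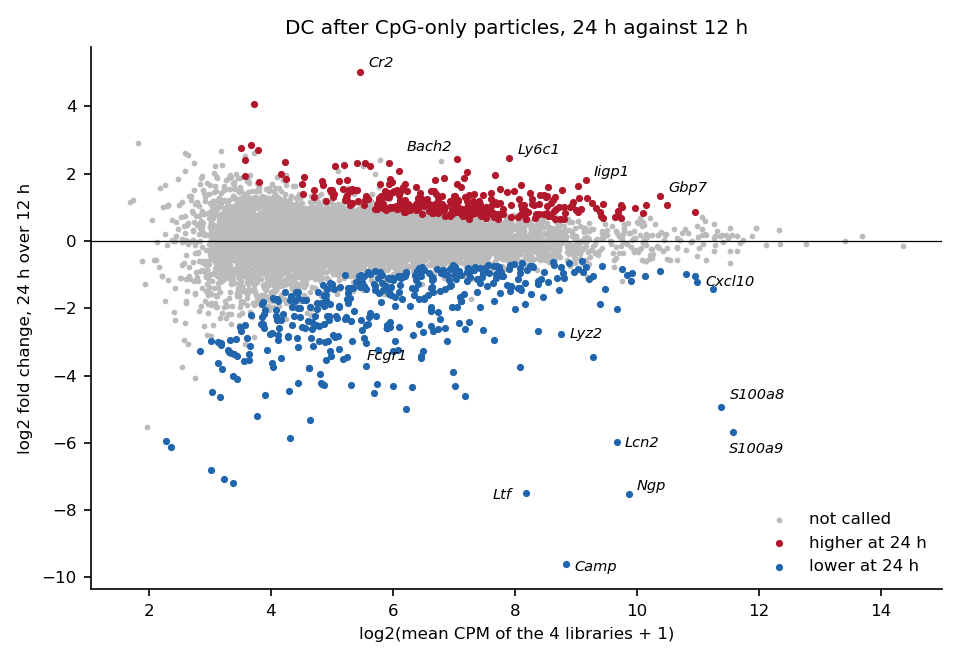
Each point is a gene: the horizontal axis gives log2(mean CPM of the 4 libraries + 1) and the vertical axis the log2 fold change of 24 h over 12 h, with called genes in red (317 higher) and blue (402 lower) and others in grey. The neutrophil genes Camp, Ngp and Ltf lie lowest, at log2 fold changes between -9.61 and -7.48.

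**Figure D2:**
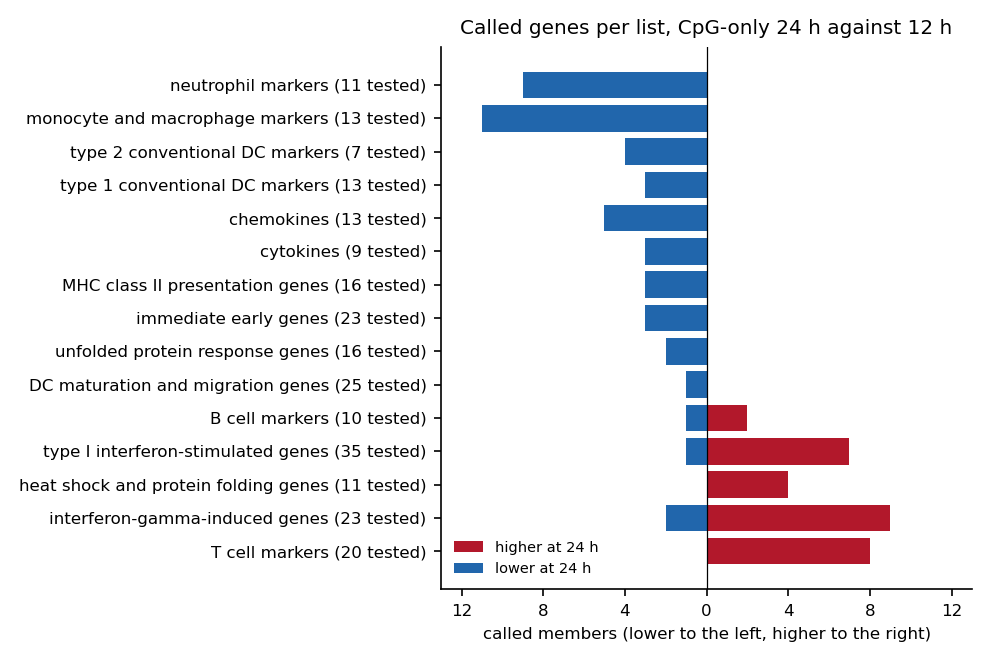
Bars give the number of called members in 15 of the 31 gene lists, higher at 24 h to the right and lower to the left, with the number of tested members in brackets. Neutrophil markers (9 of 11) and monocyte and macrophage markers (11 of 13) hold calls only to the left, and T cell markers (8 of 20) only to the right.

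Neutrophil granule genes showed the largest falls. Of 11 neutrophil markers tested, 9 fell and none rose, with a median log2 fold change of -4.94. Camp, the precursor of the antimicrobial peptide cathelicidin, had 3.27 and 0 CPM at 24 h, against 766 and 1049 CPM at 12 h (2 counts in all, against 1383). The level at 12 h was 862 times that at 24 h, with an exact 95% interval of 238 to 7123 that covers counting error only (edgeR adjusted p = 2.3e-06). Ngp, the neutrophilic granule protein, had 16.3 and 6.77 CPM at 24 h, against 1634 and 2058 CPM at 12 h, a log2 fold change of -7.51 ± 0.76 (edgeR adjusted p = 3.1e-05). Both 12 h libraries stood far above both 24 h libraries for these genes. Ltf, the iron-binding lactotransferrin, had 6.54 and 1.505 CPM at 24 h, against 565 and 586 CPM at 12 h (-7.48 ± 0.69 on the log2 scale, edgeR adjusted p = 2.6e-05). Lcn2, a siderophore-binding lipocalin, had 55.6 and 6.77 CPM at 24 h, against 1545 and 1634 CPM at 12 h (-5.98 ± 0.60, edgeR adjusted p = 3.1e-05). S100a8 and S100a9 encode the subunits of calprotectin. S100a8 had 317 and 39.1 CPM at 24 h, against 4503 and 5781 CPM at 12 h (-4.94 ± 0.76, edgeR adjusted p = 7.6e-04). S100a9 had 239 and 17.3 CPM at 24 h, against 5073 and 6832 CPM at 12 h (-5.68 ± 0.87, edgeR adjusted p = 7.3e-04). Within the 24 h group, replicate 1 kept more of both than replicate 2. Genes named as largest falls had to show no overlap between the times, so the gap between the groups is no separate support.

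Levels without immunization were close to those at 24 h: Camp had 8.97 and 3.59 CPM, Ngp 21.2 and 12.6 CPM and Ltf 1.63 and 3.59 CPM in DC of non-immunized mice. Other neutrophil genes were mixed. Mmp8, neutrophil collagenase, fell (-4.51 ± 0.63), as did Chil3, a chitinase-like protein (-3.46 ± 0.48), and Csf3r, the receptor for granulocyte colony-stimulating factor (-3.24 ± 0.86), with edgeR adjusted p between 2.8e-04 and 0.028. Mmp9, a gelatinase, had 4.90 and 0.752 CPM at 24 h, against 16.9 and 20.9 CPM at 12 h and missed the threshold (edgeR adjusted p = 0.058). Cxcr2, the receptor that guides neutrophils to their chemokines, had 214 and 21.1 CPM at 24 h, against 67.6 and 89.5 CPM at 12 h, so that the 24 h libraries lay on either side of those at 12 h (edgeR adjusted p = 0.74). Of the azurophil granule genes, Mpo had 0 counts in both 24 h libraries, against 0 and 2 counts at 12 h, and Elane had 1 and 0 counts, against 4 and 7.

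Further transcripts among the largest falls were sparse at 24 h. Cd177, a neutrophil surface protein, had 2 counts at 24 h and 72 at 12 h. C1rl, a protease related to complement C1r, had 1 count against 58, and Fcnb, the lectin ficolin B, had 1 count against 36. The ratio of 12 h over 24 h was 44.9 for Cd177 (exact 95% interval 12.0 to 378), 72.3 for C1rl (12.5 to 2904) and 44.9 for Fcnb (7.55 to 1821). Lrg1, a secreted leucine-rich glycoprotein, had 11.4 and 0.752 CPM at 24 h, against 137 and 142 CPM at 12 h (-4.99 ± 0.56, edgeR adjusted p = 7.5e-05). Chil1 and Itgb2l had 0 counts at 24 h and 28 and 27 at 12 h. With a floor of 3 counts over the group, Chil1 was at least 11.6-fold lower and Itgb2l at least 11.2-fold lower. Both were chosen after their values were seen. The Fcnb call was lost without replicate 2 at 12 h (edgeR adjusted p = 0.12) and without replicate 2 at 24 h (edgeR adjusted p = 0.11).

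The summed level of the 14 neutrophil markers was 1042 and 146 CPM at 24 h after CpG-only particles, against 15295 and 19431 CPM at 12 h. It was 500.2 and 2766 CPM at 24 h after OVA particles, against 3479 and 3393 CPM at 12 h, and 504 and 772 CPM without immunization. The 12 h libraries after CpG-only particles thus held more of these transcripts than any other library of the time course. In bulk RNA, fewer cells of a type and less RNA per cell cannot be told apart.

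Promoters of Camp, Ngp, Ltf and Lcn2 were searched because neutrophil granule genes are textbook targets of C/EBP factors. The 3 windows that held a match are shown. Sequences are RefSeq's, build GRCm38.p6, the 250 bases before the start of the gene, read 5′ to 3′ on the strand of the gene. Capitals mark matches to the C/EBP letters TTGCNNAA or the PU.1 letters GAGGAA on either strand. Ngp lies at chr9:110419558-110419807 (plus strand), Ltf at chr9:111019042-111019291 (plus strand) and Lcn2 at chr2:32387740-32387989 (minus strand).
Ngp: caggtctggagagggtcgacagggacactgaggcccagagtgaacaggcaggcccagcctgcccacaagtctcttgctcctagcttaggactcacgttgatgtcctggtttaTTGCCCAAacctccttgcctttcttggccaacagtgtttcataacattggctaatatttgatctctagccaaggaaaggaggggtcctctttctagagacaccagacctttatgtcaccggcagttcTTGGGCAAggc
Ltf: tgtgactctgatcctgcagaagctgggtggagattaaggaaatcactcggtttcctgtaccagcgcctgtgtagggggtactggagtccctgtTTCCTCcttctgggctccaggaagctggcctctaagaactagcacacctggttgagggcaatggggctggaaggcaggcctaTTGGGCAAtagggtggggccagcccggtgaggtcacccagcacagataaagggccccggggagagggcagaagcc
Lcn2: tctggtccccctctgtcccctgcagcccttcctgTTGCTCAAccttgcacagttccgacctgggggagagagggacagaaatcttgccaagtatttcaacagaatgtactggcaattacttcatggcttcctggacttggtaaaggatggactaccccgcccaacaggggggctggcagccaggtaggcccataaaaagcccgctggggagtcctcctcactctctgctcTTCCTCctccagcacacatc
The C/EBP letters occur at 2 places in the Ngp window, starting 138 and 11 bases before the start, and once each in Ltf and Lcn2, starting 75 and 216 bases before it. No match was found in the Camp window. Of the 402 lower genes 303 had a window, and 16.2% of those held the C/EBP letters, as against 7.44% of 7301 tested genes with a window and 8.09% of 235 higher genes. For the PU.1 letters the shares were 32.3% of lower, 31.5% of higher and 23.3% of tested genes. A match is a description of letters and no evidence of binding.

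Monocyte and macrophage transcripts fell as well. Of 13 markers tested 11 fell and none rose, with a median log2 fold change of -2.70. Fcgr1, the high-affinity IgG receptor CD64, had 26.1 and 8.28 CPM at 24 h, against 163 and 149 CPM at 12 h (-3.42 ± 0.36 on the log2 scale, edgeR adjusted p = 5.3e-05). Lyz2, lysozyme, had 176 and 58.7 CPM at 24 h, against 729 and 757 CPM at 12 h (-2.75 ± 0.34, edgeR adjusted p = 1.8e-04). Cd68, a lysosomal glycoprotein, had 31.0 and 18.8 CPM at 24 h, against 124 and 181 CPM at 12 h (-2.70 ± 0.33, edgeR adjusted p = 1.6e-04). Adgre1, the macrophage antigen F4/80, had 4.90 and 6.77 CPM at 24 h, against 56.3 and 38.8 CPM at 12 h (-2.97 ± 0.45, edgeR adjusted p = 7.0e-04). All 4 were lower in both 24 h libraries than in both 12 h libraries. Their position relative to non-immunized mice differed: Fcgr1, at 22.8 and 13.5 CPM there, had levels near those at 24 h, whereas Lyz2, at 636 and 721 CPM, had levels near those at 12 h. The 2 markers without a call were Ly6c2, which inflammatory monocytes express, and the Fc receptor gene Fcgr3. Ly6c2 had 519.6 and 596 CPM at 24 h, against 810.1 and 619 CPM at 12 h (edgeR adjusted p = 0.33). Fcgr3 had 189.5 and 19.6 CPM at 24 h, against 168 and 239 CPM at 12 h (edgeR adjusted p = 0.3), with replicate 1 at 24 h within the range of the 12 h libraries.

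The summed level of the 17 monocyte and macrophage markers was 1781 and 1055 CPM at 24 h, against 4151 and 3925 CPM at 12 h, and 2954 and 3087 CPM without immunization. Mertk and C1qa, which mark tissue macrophages, had 0 to 8 counts in each of the 4 libraries. Genes that myeloid DC share with monocytes fell too. Itgam, which encodes CD11b, had 55.6 and 24.1 CPM at 24 h, against 121 and 188 CPM at 12 h (-2.08 ± 0.33, edgeR adjusted p = 0.001), and Csf1r, the receptor for macrophage colony-stimulating factor, had 65.4 and 24.8 CPM at 24 h, against 149.9 and 298 CPM at 12 h (-2.45 ± 0.39, edgeR adjusted p = 9.2e-04). Sirpa, a receptor for CD47, had 40.8 and 17.3 CPM at 24 h, against 62.0 and 139 CPM at 12 h (-1.92 ± 0.42, edgeR adjusted p = 0.011). The chemokine receptor gene Cx3cr1 had 9.80 and 3.01 CPM at 24 h, against 13.5 and 95.5 CPM at 12 h (-3.28 ± 0.79, edgeR adjusted p = 0.018). These 4 are the called ones of 7 type 2 conventional DC markers tested. The calls of Sirpa and Cx3cr1 were lost without replicate 2 at 12 h (edgeR adjusted p = 0.17 and 0.39), the library in which both were highest, and without replicate 2 at 24 h (edgeR adjusted p = 0.10 and 0.12).

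C-type lectin genes, a family chosen after its values were seen, gave a similar picture, with 8 of 12 tested members lower, none higher and a median of -2.74. Clec4e, the receptor Mincle for mycobacterial glycolipids, had 6.54 and 2.26 CPM at 24 h, against 57.5 and 89.5 CPM at 12 h (-4.28 ± 0.51, edgeR adjusted p = 1.3e-04). Clec7a, the beta-glucan receptor Dectin-1, had 13.1 and 5.27 CPM at 24 h, against 41.7 and 73.1 CPM at 12 h (-2.82 ± 0.48, edgeR adjusted p = 0.0015). Also chosen after their values were seen, the acute phase gene Saa3 had 19.6 and 8.28 CPM at 24 h, against 267 and 219 CPM at 12 h (-4.32 ± 0.31, edgeR adjusted p = 2.3e-06), and Fpr2, a receptor for formylated bacterial peptides, had 4.90 and 5.27 CPM at 24 h, against 90.1 and 109 CPM at 12 h (-4.25 ± 0.41, edgeR adjusted p = 2.8e-05). How far these falls follow the lower summed levels of neutrophil and monocyte markers was not tested. The 8 Ugt1a transcripts that were called lower carry near-identical counts and share exons, so they stand for 1 locus.

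**Figure D3:**
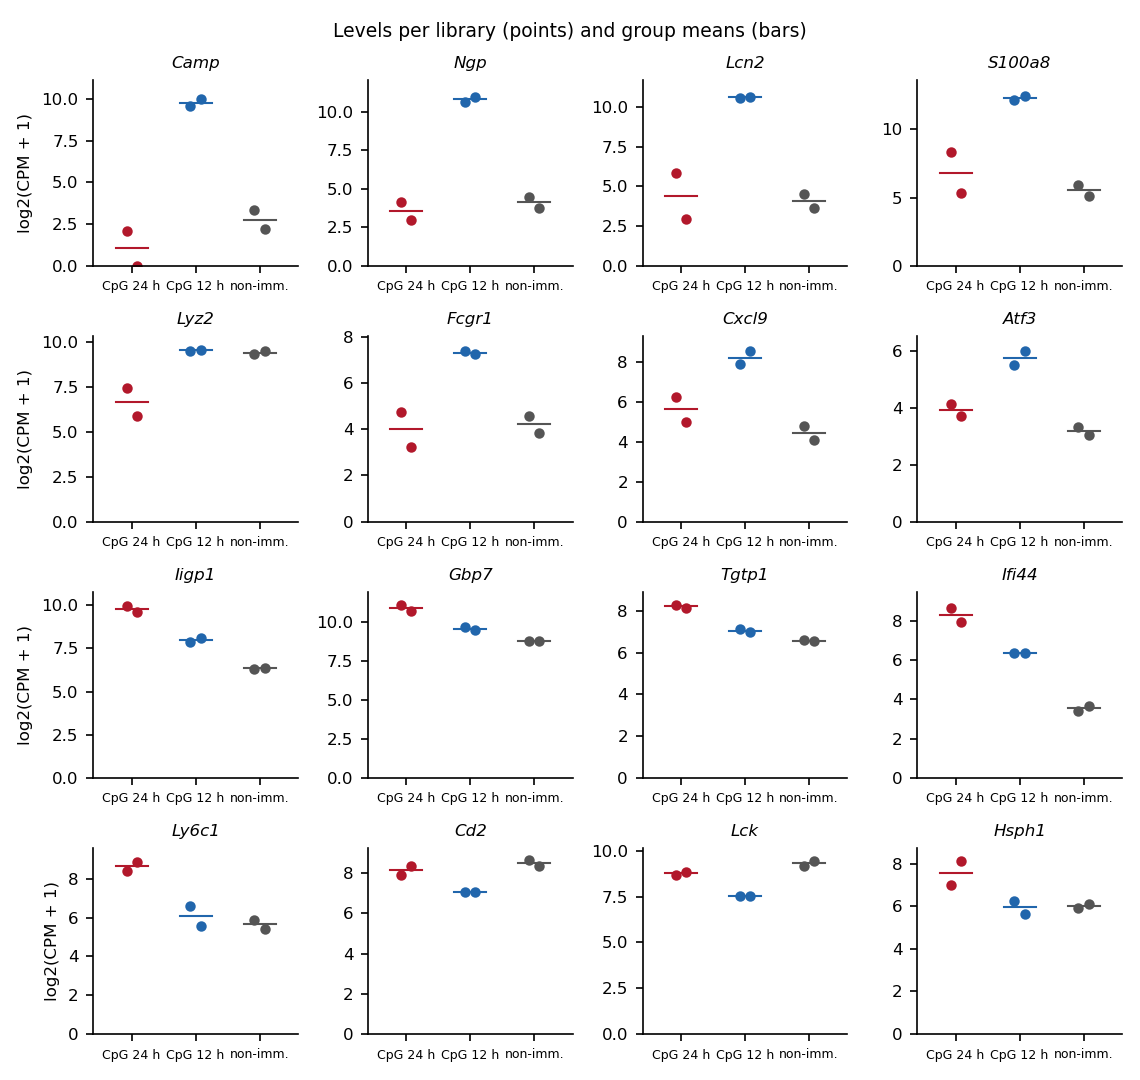
Points are single libraries and bars group means of log2(CPM + 1), for 16 genes, at 24 h and 12 h after CpG-only particles and without immunization, from left to right in each panel. The 16 are called genes, and several were named under a rule that requires no overlap between the times, so their separation is no separate result. Without immunization Camp, Ngp and Fcgr1 stand near their 24 h levels and Lyz2 near its 12 h level.

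Some chemokine and cytokine genes fell, and most did not pass the test. Of 13 chemokine genes 5 fell and none rose, with a median log2 fold change of -1.21. Ccl2, which attracts monocytes, had 4.90 and 1.505 CPM at 24 h, against 49.6 and 56.7 CPM at 12 h (-4.29 ± 0.54 on the log2 scale, edgeR adjusted p = 2.6e-04). Cxcl9, a ligand of CXCR3 on activated T cells, had 73.5 and 30.8 CPM at 24 h, against 233 and 367 CPM at 12 h (-2.65 ± 0.41, edgeR adjusted p = 8.2e-04). Cxcl10, also a ligand of CXCR3, had 1310.4 and 1147 CPM at 24 h, against 2845 and 2771 CPM at 12 h (-1.21 ± 0.24, edgeR adjusted p = 0.0047). Both ligands were lower in each 24 h library than in each 12 h library, and at 24 h Cxcl10 was still above the 202 and 161 CPM of non-immunized mice. Ccl22, which DC secrete to attract CCR4-bearing T cells, had 99.7 and 85.0 CPM at 24 h, against 341 and 276 CPM at 12 h (-1.77 ± 0.37, edgeR adjusted p = 0.0078). The Ccl22 call was lost without replicate 1 at 12 h (edgeR adjusted p = 0.061) and under DESeq2. Ccl12 had 0 counts at 24 h and 14 at 12 h, at least 5.82-fold lower. Ccl5, a chemokine that attracts T cells, had 3201 and 2196 CPM at 24 h, against 2619.7 and 2899 CPM at 12 h (edgeR adjusted p = 0.95), and the groups overlapped.

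Of 9 cytokine genes 3 fell and none rose (median -0.89). Il1rn, the interleukin 1 receptor antagonist, had 19.6 and 11.3 CPM at 24 h, against 58.6 and 99.98 CPM at 12 h (-2.46 ± 0.39, edgeR adjusted p = 0.001). Il18, an interleukin 1 family cytokine, had 11.4 and 7.52 CPM at 24 h, against 32.7 and 28.4 CPM at 12 h (-1.78 ± 0.48, edgeR adjusted p = 0.032), and Ebi3, a subunit of interleukins 27 and 35, had 49.0 and 17.3 CPM at 24 h, against 67.6 and 113 CPM at 12 h (-1.60 ± 0.40, edgeR adjusted p = 0.021). Il1b, Il6 and Il12b were not called. For each of them replicate 1 at 24 h was several times replicate 2. Il12b, a subunit of interleukin 12, had 76.8 and 10.5 CPM at 24 h, against 25.9 and 20.9 CPM at 12 h (edgeR adjusted p = 0.63). Without replicate 2 at 24 h Il12b was called higher, at 1.68 (edgeR adjusted p = 0.028), and without replicate 1 at 24 h its log2 fold change was -1.21 with no call. Without replicate 1 at 12 h, 3 chemokine genes and 2 cytokine genes were called lower, and without replicate 1 at 24 h 9 and 5 were. Without replicate 2 at 24 h, 4 chemokine genes were lower and 2 higher, and 1 cytokine gene was lower and 1 higher. The calls of Il18 and Ebi3 were lost without replicate 2 at 12 h or replicate 2 at 24 h, and that of Il18 also without replicate 1 at 12 h and under DESeq2.

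Immediate early genes, which respond to a stimulus within minutes, mostly did not pass the test: 3 of 23 fell and none rose (median -0.21). Atf3, a stress-induced transcription factor, had 16.3 and 12.0 CPM at 24 h, against 43.9 and 62.7 CPM at 12 h (-1.96 ± 0.38, edgeR adjusted p = 0.0046). Nr4a1, an orphan nuclear receptor, had 37.6 and 40.6 CPM at 24 h, against 67.6 and 194 CPM at 12 h (-1.71 ± 0.41, edgeR adjusted p = 0.018), where replicate 2 at 12 h was the highest. Junb had 142 and 169 CPM at 24 h, against 242 and 273 CPM at 12 h (-0.73 ± 0.20, edgeR adjusted p = 0.034). The Junb call was lost under DESeq2 (DESeq2 adjusted p = 0.064), with only the 4 libraries of the comparison and without any 1 of these 4. Jun, a subunit of the AP-1 transcription factor, had 131 and 89.5 CPM at 24 h, against 60.8 and 59.7 CPM at 12 h, a log2 fold change of 0.82 ± 0.28 that did not pass the threshold (edgeR adjusted p = 0.089). Both 24 h libraries were above both 12 h libraries. Jun was called without replicate 2 at 24 h, at 1.10 (edgeR adjusted p = 0.037), with a replicate block, at 0.84 (edgeR adjusted p = 0.038), and with no filter on low counts (edgeR adjusted p = 0.040), and its levels without immunization were 17.9 and 10.8 CPM. None of the 3 calls was kept without replicate 2 at 12 h, and without replicate 2 at 24 h the list held 1 lower and 1 higher call. The AP-1 partner gene Batf2, which interferon induces, fell with 14.7 and 6.77 CPM at 24 h, against 43.9 and 53.7 CPM at 12 h (-2.34 ± 0.45, edgeR adjusted p = 0.004), a call lost without replicate 2 at 24 h (edgeR adjusted p = 0.063).

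Interferon-induced genes split. Of 23 interferon-gamma-induced genes 9 rose, 2 fell (the chemokine genes Cxcl9 and Cxcl10) and 12 did not pass, with a median log2 fold change of 0.58. The 9 encode interferon-induced GTPases. Iigp1, an immunity-related GTPase, had 995 and 781 CPM at 24 h, against 232 and 273 CPM at 12 h (1.80 ± 0.20 on the log2 scale, edgeR adjusted p = 8.1e-05). Tgtp1, of the same family, had 315 and 278 CPM at 24 h, against 139 and 127 CPM at 12 h (1.14 ± 0.18, edgeR adjusted p = 0.0011), but its near-identical neighbour Tgtp2 may share reads with it (1.06 on the log2 scale). Gbp7, a guanylate-binding protein, had 2185 and 1646 CPM at 24 h, against 812 and 691 CPM at 12 h (1.34 ± 0.21, edgeR adjusted p = 8.2e-04). In each of these genes both 24 h libraries exceeded both 12 h libraries, which in turn exceeded non-immunized DC, at 78.3 and 82.6 CPM for Iigp1 and 442 and 436 CPM for Gbp7. The rest of the 9 were Tgtp2, Gbp2, Gbp4, Gbp8, Igtp and Irgm2, with log2 fold changes between 0.77 (Irgm2) and 1.06 (Tgtp2). Over the whole guanylate-binding family, a set chosen after its values were seen, 6 of 10 members rose and none fell. Irf1, a transcription factor that interferon-gamma induces, and the antigen processing genes Psmb9 and Tap1 had log2 fold changes between 0.15 (Tap1) and 0.29 (Irf1) and were not called.

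Type I interferon-stimulated genes leaned the same way, with 7 of 35 higher, 1 lower and a median of 0.50. Ifi44, an interferon-induced protein of uncertain function, had 407 and 242 CPM at 24 h, against 82.3 and 80.6 CPM at 12 h (1.96 ± 0.27, edgeR adjusted p = 3.6e-04) and 9.79 and 11.7 CPM in non-immunized DC. Oas2, an enzyme that senses double-stranded RNA, had 373 and 682 CPM at 24 h, against 221 and 198 CPM at 12 h (1.32 ± 0.24, edgeR adjusted p = 0.0025). Parp14, an ADP-ribosyltransferase, had 796 and 942 CPM at 24 h, against 490.1 and 455 CPM at 12 h (0.87 ± 0.18, edgeR adjusted p = 0.0066). The libraries of the groups did not overlap for these 3. Further rises were Trim30a, Ifit3 and Oasl2. Well-known members such as Isg15 (0.25 on the log2 scale), Irf7 (0.19) and Mx1 (0.07) were not called and were high at both times, Isg15 with 2077 and 1888 CPM at 24 h, against 1799 and 1501 CPM at 12 h and 239.7 and 129 CPM without immunization. The exception was Ifi205, a DNA-binding protein of the p200 family, which fell with 31.0 and 12.0 CPM at 24 h, against 69.9 and 158 CPM at 12 h (-2.57 ± 0.44, edgeR adjusted p = 0.0015).

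Counts in both interferon lists depend on single libraries, replicate 2 at 12 h above all. Without it, 4 interferon-gamma-induced and 1 type I interferon gene were called higher, and without replicate 1 at 24 h the numbers were 11 and 12. Without replicate 1 at 12 h or replicate 2 at 24 h, 4 type I genes were called higher in either case. Iigp1, Gbp7, Tgtp1 and Ifi44 stayed called without any 1 of the 4 libraries, with edgeR adjusted p of at most 0.028.

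The promoters of Tgtp1, Gbp7 and Ifi44 were searched because these genes rose and interferon acts through short known elements. The 2 windows that held a match, those of Tgtp1 and Gbp7, are shown. Tgtp1 lies at chr11:48992247-48992496 (minus strand) and Gbp7 at chr3:142530086-142530335 (plus strand), again RefSeq, build GRCm38.p6, 250 bases before the start. Capitals mark the interferon-stimulated response element (ISRE) searched as 2 runs of GAAA with 2 bases of any kind between them, and the gamma-activated site (GAS) searched as TTCNNNGAA, on either strand.
Tgtp1: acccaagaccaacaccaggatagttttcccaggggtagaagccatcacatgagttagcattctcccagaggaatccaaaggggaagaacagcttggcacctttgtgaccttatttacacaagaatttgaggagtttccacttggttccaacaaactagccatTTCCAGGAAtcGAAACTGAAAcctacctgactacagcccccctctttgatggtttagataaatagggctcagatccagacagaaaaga
Gbp7: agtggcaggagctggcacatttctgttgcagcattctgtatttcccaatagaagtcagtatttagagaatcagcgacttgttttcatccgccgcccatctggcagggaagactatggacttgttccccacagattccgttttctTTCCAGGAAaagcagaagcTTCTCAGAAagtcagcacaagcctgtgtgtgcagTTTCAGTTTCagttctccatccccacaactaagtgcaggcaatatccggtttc
Tgtp1 holds 1 ISRE and 1 GAS match and Gbp7 1 ISRE and 2 GAS matches, all within 106 bases of the start. The Ifi44 window, searched in the same way, held no exact match to either set of letters. This does not show that it lacks such an element, and a match is no evidence of binding. ISRE letters were in 10.2% of 235 windows of higher genes, 5.61% of 303 windows of lower genes and 3.08% of 7301 windows of tested genes. GAS letters were in 8.09%, 5.94% and 6.22% of them, in the same order.

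A share of the T cell genes rose. Of 20 T cell markers 8 rose, none fell and all 20 had a log2 fold change above 0, with a median of 0.85. Lck, the kinase bound to CD4 and CD8, had 417 and 456 CPM at 24 h, against 183 and 185 CPM at 12 h (1.24 ± 0.20 on the log2 scale, edgeR adjusted p = 0.0013). Lef1, a transcription factor of naive T cells, had 106 and 247 CPM at 24 h, against 42.8 and 56.7 CPM at 12 h (1.87 ± 0.32, edgeR adjusted p = 0.0015), and the adhesion receptor gene Cd2 had 240.2 and 331 CPM at 24 h, against 131 and 133 CPM at 12 h (1.11 ± 0.21, edgeR adjusted p = 0.0035). For these 3 genes both 24 h libraries exceeded both 12 h libraries. The chains of the CD3 complex were not called, with 121 and 139 CPM at 24 h, against 131 and 83.6 CPM at 12 h for Cd3e (edgeR adjusted p = 0.55) and log2 fold changes of 0.42 for Cd3d and 0.29 for Cd3g. Cd8b1 and Tcf7 were among the other 5 rises, while Cd4 had 13.1 and 132 CPM at 24 h, against 19.2 and 13.4 CPM at 12 h, high in 1 library (edgeR adjusted p = 0.052).

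The summed level of the 20 T cell markers in the table was 4157 and 5258 CPM at 24 h, against 3228 and 2238 CPM at 12 h, and 7161 and 7406 CPM without immunization, so the 24 h libraries lay between the others. The number of T cell markers called higher was 4 without replicate 2 at 24 h and 5 without replicate 2 at 12 h. Genes outside the lists moved with them, chosen after their values were seen. Of 8 GIMAP genes, GTPases needed for the survival of lymphocytes, 7 rose and none fell (median 1.27), among them Gimap4 with 419.9 and 605 CPM at 24 h, against 175 and 221 CPM at 12 h (1.37 ± 0.21, edgeR adjusted p = 6.8e-04). Satb1, a chromatin organizer of thymocytes, had 322 and 508 CPM at 24 h, against 118 and 146 CPM at 12 h (1.65 ± 0.23, edgeR adjusted p = 3.1e-04), and Pik3ip1, an inhibitor of the kinase PI3K, had 209 and 265 CPM at 24 h, against 56.3 and 56.7 CPM at 12 h (2.06 ± 0.22, edgeR adjusted p = 6.7e-05). How far these rises follow the higher summed level of T cell markers was not tested.

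B cell genes mostly followed 1 library. The summed level of 12 B cell markers was 616 and 2655 CPM at 24 h, against 1091 and 1488 CPM at 12 h, and 560.2 and 551 CPM without immunization. Of 10 tested, Cr2 and Ebf1 rose and Blk fell. Cr2, complement receptor 2, was the largest rise under the naming rule, with 13.1 and 153 CPM at 24 h, against 2.25 and 2.98 CPM at 12 h (5.04 ± 0.95, edgeR adjusted p = 0.0037), and Ebf1, a B lineage transcription factor, had 17.97 and 98.6 CPM at 24 h, against 9.01 and 17.9 CPM at 12 h (2.25 ± 0.61, edgeR adjusted p = 0.033). Without replicate 2 at 24 h neither was called, with log2 fold changes of 2.28 for Cr2 and 0.45 for Ebf1, nor without replicate 1 at 12 h, and the Ebf1 call was also lost without replicate 2 at 12 h (edgeR adjusted p = 0.11). Ms4a1, which encodes CD20, had 75.2 and 377 CPM at 24 h, against 135 and 176 CPM at 12 h, so that the 12 h libraries lay between those at 24 h (edgeR adjusted p = 0.56). Without replicate 1 at 24 h Ms4a1 was called higher, at 1.23 (edgeR adjusted p = 0.014), and 6 B cell markers were, while without replicate 2 at 24 h its log2 fold change was -1.05 and no B cell marker was called higher. Blk, a Src family kinase, had 109 and 175 CPM at 24 h, against 352 and 243 CPM at 12 h (-1.05 ± 0.23, edgeR adjusted p = 0.0091), with no call without replicate 1 at 12 h (edgeR adjusted p = 0.11).

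**Figure D4:**
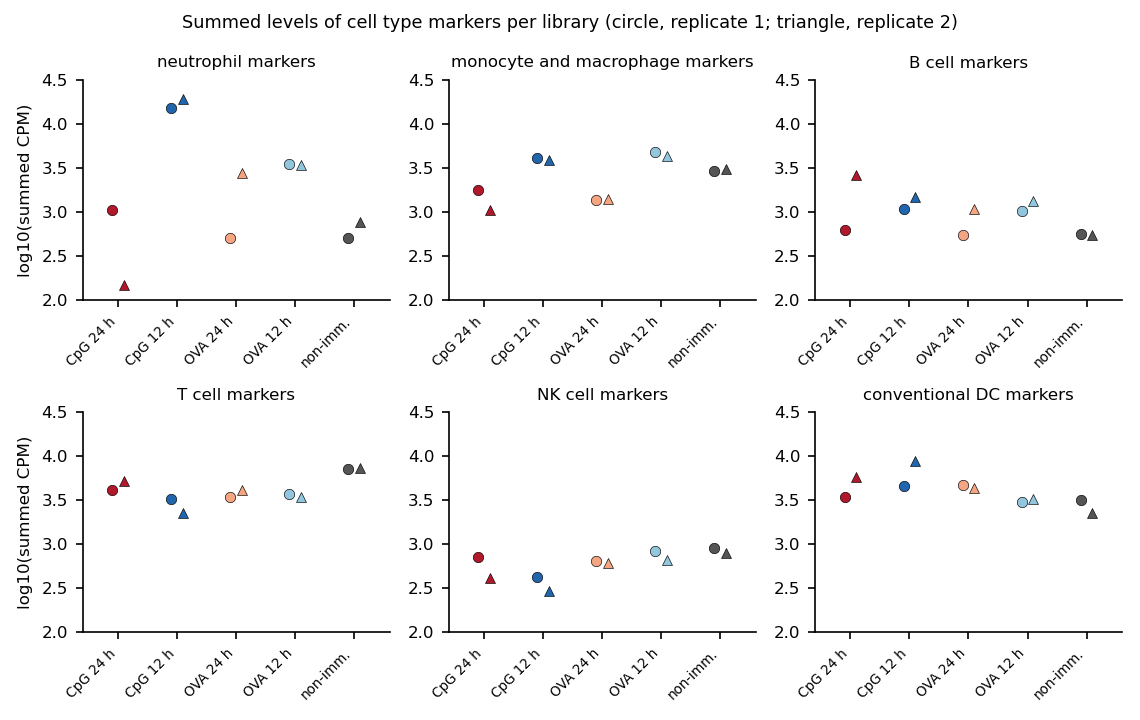
Panels give log10 of the summed CPM of 6 marker lists in each of the 10 time-course libraries, with replicate 1 as circles and replicate 2 as triangles. Neutrophil sums at 12 h after CpG-only particles (15295 and 19431 CPM) exceed all others, and B cell sums at 24 h differ between the replicates (616 and 2655 CPM).

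Other large rises came from genes of varied roles. Ly6c1, a surface antigen of endothelial cells and lymphocytes, had 345 and 467 CPM at 24 h, against 95.8 and 46.3 CPM at 12 h (2.48 ± 0.27, edgeR adjusted p = 7.5e-05), against 57.9 and 42.2 CPM without immunization. It shares near-identical sequence with Ly6c2, so reads may be divided between them. Bach2, a transcriptional repressor of lymphocytes, had 131 and 308 CPM at 24 h, against 22.5 and 62.7 CPM at 12 h (2.44 ± 0.39, edgeR adjusted p = 0.001). Zfp365 had 49 counts at 24 h and 2 at 12 h, a ratio of 19.7 (exact 95% interval 5.16 to 167), and lost its call without replicate 1 at 12 h or replicate 2 at 24 h. The other largest rises, Ppic, Rundc3b, Col23a1, Amigo2 and Rnf122, had log2 fold changes between 2.36 (Rnf122) and 2.84 (Ppic) at low levels, and each of these 5 lost its call without at least 1 library.

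Genes of DC maturation and migration were mostly not called. Of 25 tested 1 fell (Ccl22, above) and none rose, with a median of -0.41, and under DESeq2 none was called. The list nonetheless leaned down, with a log2 fold change above 0 in only 4 of the 25. An unadjusted edgeR p under 0.05 was found for 10 of the 25, against 1997 of the 9428 genes tested, and by DESeq2 for 8. With no filter on low counts 8 of 26 were called lower, and with a replicate block 3 of 25. Ccr7, the receptor that guides DC to the T cell zone, had 964 and 834 CPM at 24 h, against 756 and 904 CPM at 12 h (log2 fold change 0.10 ± 0.21, edgeR adjusted p = 0.83), all above the 347 and 287 CPM of non-immunized mice. Cd86 had 76.8 and 69.2 CPM at 24 h, against 57.5 and 83.6 CPM at 12 h (edgeR adjusted p = 0.96) and Cd40 136 and 188 CPM at 24 h, against 260.3 and 315 CPM at 12 h (edgeR adjusted p = 0.071). Both encode costimulatory molecules, Cd86 a ligand of CD28, and neither was called. Cd83, a surface marker of mature DC, had 127 and 144 CPM at 24 h, against 180.3 and 237 CPM at 12 h (edgeR adjusted p = 0.13). Cd80 had at most 10.4 CPM in any of the 4 libraries, and Cd274, the inhibitory ligand PD-L1, had 271 and 229 CPM at 24 h, against 157 and 175 CPM at 12 h (edgeR adjusted p = 0.1). Of 11 costimulatory and coinhibitory ligands Pvr, a ligand of DNAM-1, fell with 47.4 and 44.4 CPM at 24 h, against 90.1 and 95.5 CPM at 12 h (-1.04 ± 0.26, edgeR adjusted p = 0.022), and Cd48 fell by 0.73 on the log2 scale (edgeR adjusted p = 0.044). Neither Pvr nor Cd48 was called under DESeq2, without replicate 1 at 12 h or without replicate 2 at 24 h, and Pvr was not called without replicate 2 at 12 h. Without replicate 1 at 24 h, which had the higher levels of several maturation genes, 9 maturation genes were called lower.

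Conventional DC markers gave no call among 8 tested (median -0.54), by edgeR or DESeq2, while 3 of the 8 had an unadjusted edgeR p under 0.05 and 2 an unadjusted DESeq2 p. Without replicate 1 at 24 h edgeR called 4 of them lower, without replicate 1 at 12 h or replicate 2 at 24 h 1 in either case, and with no filter on low counts 3. The type 1 subset had 3 of 13 lower: Naaa, an acid amidase, with 35.9 and 19.6 CPM at 24 h, against 123 and 161 CPM at 12 h (-2.47 ± 0.31, edgeR adjusted p = 2.0e-04), Ifi205, and Xcr1, the receptor for XCL1, with 8.17 and 3.76 CPM at 24 h, against 15.8 and 40.3 CPM at 12 h (-2.34 ± 0.67, edgeR adjusted p = 0.042). The Xcr1 call was lost without replicate 2 at 12 h (edgeR adjusted p = 0.41), without replicate 2 at 24 h (edgeR adjusted p = 0.30) and under DESeq2, and without replicate 1 at 24 h 6 type 1 markers were lower. Of 16 MHC class II presentation genes 3 fell, all of them lysosomal. Ifi30, a thiol reductase, had 752 and 461 CPM at 24 h, against 1089.6 and 1339 CPM at 12 h (-1.02 ± 0.25, edgeR adjusted p = 0.021), while the cathepsin genes Ctsl and Ctsh fell by 1.75 and 0.70 on the log2 scale (edgeR adjusted p = 0.024 for Ctsl and 0.038 for Ctsh). The class II chains themselves were not called, and H2-Aa had 1395 and 3024 CPM at 24 h, against 1828 and 3596 CPM at 12 h (edgeR adjusted p = 0.66). None of Ifi30, Ctsl and Ctsh was called without replicate 2 at 12 h or without replicate 2 at 24 h, nor Ctsl and Ctsh without replicate 1 at 12 h, though the log2 fold changes stayed below 0.

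Heat shock genes rose in part, with 4 of 11 higher, none lower and a median of 1.01. With only the 4 libraries of the comparison none of the 11 was called. Hsph1, a co-chaperone of HSP70, had 127 and 273 CPM at 24 h, against 74.4 and 49.2 CPM at 12 h (1.69 ± 0.30, edgeR adjusted p = 0.0023), against 59.5 and 68.2 CPM without immunization. Dnajb1, an HSP40 protein, had 142 and 197 CPM at 24 h, against 85.6 and 62.7 CPM at 12 h (1.18 ± 0.27, edgeR adjusted p = 0.013), and Dnaja1 and Hsp90aa1 rose by 1.03 and 1.01 on the log2 scale (edgeR adjusted p = 0.01 and 0.018). The count was 0 without replicate 2 at 12 h, 1 without replicate 2 at 24 h and 7 without replicate 1 at 24 h. In the unfolded protein response 2 of 16 genes fell: Xbp1, a transcription factor, with 154 and 128 CPM at 24 h, against 274 and 269 CPM at 12 h (-0.97 ± 0.20, edgeR adjusted p = 0.0063) and the disulfide isomerase gene Pdia6 with 142 and 162 CPM at 24 h, against 302 and 248 CPM at 12 h (-0.86 ± 0.21, edgeR adjusted p = 0.019). Among 13 glycolysis genes Eno1 (enolase) and Pkm (pyruvate kinase) fell by 1.43 and 0.83 on the log2 scale and Hk1 (hexokinase) rose by 0.75, with edgeR adjusted p between 0.0088 and 0.047. The Hk1 call was lost with a replicate block (edgeR adjusted p = 0.051), under DESeq2 and without replicate 2 at 12 h or either replicate at 24 h, and neither Eno1 nor Pkm was called without replicate 1 at 12 h or replicate 2 at 24 h. Likewise Xbp1 was not called without replicate 2 at 24 h, nor Pdia6 without replicate 1 at 12 h.

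The remaining lists held at most 2 calls each. In the NF-kB, AP-1 partner, plasma cell and Langerhans cell lists these made a larger share than the 7.63% called over all genes. In the others the share was smaller. Each such share rests on at most 2 genes. Of 20 NF-kB pathway genes 1 rose (Ikbke, 0.96 ± 0.27, edgeR adjusted p = 0.042) and 1 fell (Tnfaip2, with 39.2 and 21.8 CPM at 24 h, against 153 and 175 CPM at 12 h, -2.53 ± 0.30 on the log2 scale, edgeR adjusted p = 9.6e-05). The Ikbke call was lost with a replicate block (edgeR adjusted p = 0.052), under DESeq2 and without replicate 2 at either time. Of 19 MHC class I genes only Nlrc5, the transactivator of class I genes, rose (0.76 ± 0.18, edgeR adjusted p = 0.017). Of 21 cell cycle genes H2afz fell (-0.85), and of 25 oxidative phosphorylation genes Ndufa1 fell (-0.87). Each of Nlrc5, H2afz and Ndufa1 lost its call without replicate 1 or without replicate 2 at 12 h, as did Nlrc5 and H2afz without replicate 2 at 24 h and Ndufa1 without replicate 1 at 24 h. With all 10 libraries, the filter on low counts and no replicate block, neither edgeR nor DESeq2 made a call among 25 ribosomal protein genes, 13 cholesterol synthesis genes, 7 plasmacytoid DC markers or 7 natural killer cell markers. The number with an unadjusted edgeR p under 0.05 was 0, 0, 2 and 5 of them in that order, and by DESeq2 0, 0, 2 and 2. Of the natural killer markers 2 were called higher with a replicate block and 2 without replicate 2 at 24 h, and 1 was called lower without replicate 1 at 24 h. Of the plasmacytoid DC markers 1 was called higher without replicate 1 at 24 h and 1 without replicate 2 at 24 h. Of 12 AP-1 partner and MAP kinase feedback genes 2 fell, among them Batf2. The 1 of 5 plasma cell markers that fell was Xbp1, and the 1 of 6 Langerhans cell and migratory DC markers was Ccl22. Both are already counted in lists above. The stromal list had 1 tested member with no call, at an unadjusted p under 0.05 in both tools, and no erythroid or platelet marker reached the count needed for a test. Among natural killer genes, Nkg7, a granule protein of cytotoxic cells, had 279 and 146 CPM at 24 h, against 119 and 85.1 CPM at 12 h (edgeR adjusted p = 0.066, or 0.041 with a replicate block).

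The same interval after OVA particles was set beside these changes. The OVA libraries at both times are separate from the CpG-only ones. After OVA particles 474 genes (5.03%) were higher and 365 genes (3.87%) lower at 24 h than at 12 h. Of the genes that fell, 194 were common to both particles, 48.3% of those after CpG-only and 53.2% of those after OVA particles. Of the genes that rose 38 were common, 12.0% and 8.02%. The monocyte list fell with both, 12 of 13 markers after OVA particles. Fcgr1 there had 7.68 and 12.1 CPM at 24 h, against 289 and 253 CPM at 12 h (-4.77 ± 0.38, edgeR adjusted p = 4.7e-06).

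The change after CpG-only particles minus that after OVA particles was tested as an interaction in the same fit, with 65 genes (0.689%) above 0 and 254 genes (2.69%) below 0 called. Neutrophil genes differed: 6 of 11 were called below 0. Camp had 26.9 and 123 CPM at 24 h, against 90.3 and 65.4 CPM at 12 h after OVA particles, with no call (-0.10 ± 0.44, edgeR adjusted p = 0.93), and the difference of the changes was -9.52 ± 0.92 (edgeR adjusted p = 8.9e-05). Of 25 maturation genes 20 were called below 0. After OVA particles 21 of the 25 were called higher at 24 h than at 12 h. Ccr7 had 1793 and 1318 CPM at 24 h, against 292 and 293 CPM at 12 h (2.41 ± 0.22, edgeR adjusted p = 7.7e-06), and the difference of the changes was -2.30 ± 0.30 (edgeR adjusted p = 4.0e-04). At 12 h both Ccr7 values after OVA particles were below both after CpG-only particles, and at 24 h both were above.

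Interferon-gamma-induced genes had 9 of 23 differences above 0 and none below. Tgtp1 had 244 and 245 CPM at 24 h, against 301 and 311 CPM at 12 h after OVA particles (-0.33 ± 0.18, edgeR adjusted p = 0.28), so that the 12 h libraries after OVA particles stood near the 24 h libraries after CpG-only particles, and the difference of the changes was 1.47 ± 0.25 (edgeR adjusted p = 0.0033). Type I interferon genes had 6 of 35 differences above 0. T cell markers had 2 of 20, among them Cd2 at 1.16 ± 0.29 (edgeR adjusted p = 0.038). No monocyte marker of 13 differed at this threshold, which does not show that the falls were alike.

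**Figure D5:**
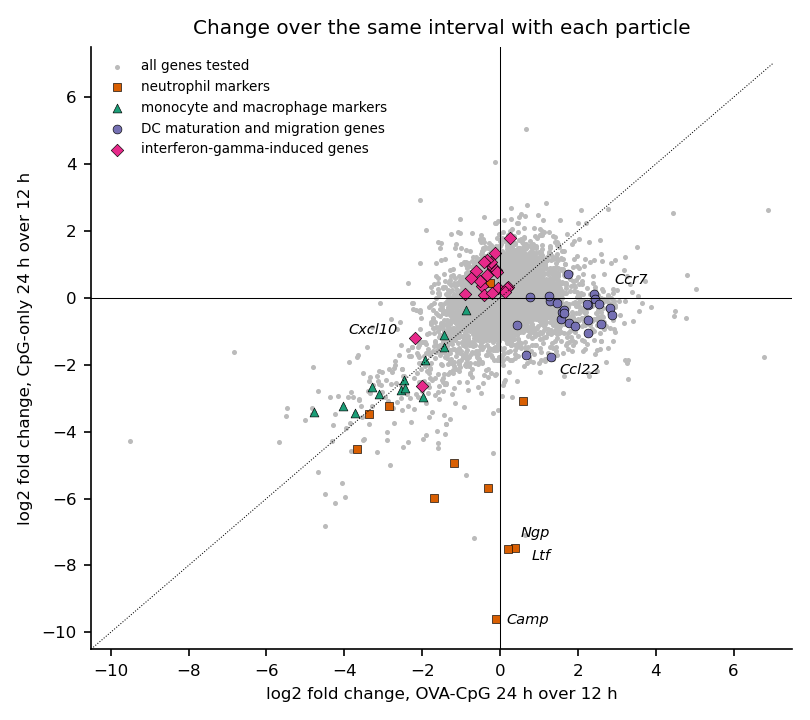
Each point is a gene, with the log2 fold change of 24 h over 12 h after OVA particles on the horizontal axis and after CpG-only particles on the vertical axis, 4 lists in colour, and equal change along the dotted line. Monocyte and macrophage markers lie near the line, neutrophil markers such as Camp below it, and maturation genes such as Ccr7 to the right of it, near 0 on the vertical axis.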

How the data were processed

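RNA was sequenced from sorted lymph node DC. The submitters' processing notes name bcl2fastq, HISAT 0.1.6, HOMER and the mm9 build. The authors deposited whole-number counts per gene for 24421 genes, with a different total in each library. Per the file headers the same table gives log2 fold changes and adjusted p-values of the authors' comparisons with non-immunized DC, which were read but are not printed. The 10 per-library columns of normalized values were not used. No mm9 annotation was used, so coordinates appear only for RefSeq promoters of GRCm38.p6.

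Counts were tested with edgeR 4.0.16 (quasi-likelihood, TMM, filterByExpr by group) in 1 fit over the 10 time-course libraries, with Benjamini-Hochberg adjustment over 9428 genes. Levels are CPM of library totals, and values after ± are the SE of log2 fold changes. DESeq2 1.42.0, other filters and normalization, a replicate block and leaving out each library were the alternatives, and list counts under all of them were added after seeing the data. The fit was run in R 4.3.3 and tested on simulated data, and figures were drawn with matplotlib 3.10.9 under Python 3.11.15.

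The comparison and the 31 gene lists were chosen with earlier results of these data known. Named genes follow a rule. It takes the 10 largest rises and the 10 largest falls, among calls that average 10 CPM or more and whose libraries do not overlap between the times, without unclear gene models. From every list it adds as many as 4 calls, by smallest adjusted p, or 2 genes where a list has no call. It always follows Jun, Ms4a1, Camp, Cd40, Cd80, Cd86, Cd83, Ccr7, Il12b, Il15, Cd274 and Cxcl10. Further members of the lists are named for their group, and genes in no list are marked where they appear. A few genes that the rule or the lists hold are not reported here one by one, though list counts and sums include them. For a gene at 0 in a group, folds are bounds against 3 counts summed over that group. Floors and exact intervals cover counting error only.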

Additional observations from a re-analysis of the deposited data

Results flagged for a closer look

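The change from 12 h to 24 h differed between CpG-only and OVA particles in 319 genes, by the interaction term of edgeR's quasi-likelihood fit with Benjamini-Hochberg adjustment. The values below are the log2 change after CpG-only particles minus that after OVA particles, for genes named by the rule, and each passed an adjusted p of 0.05. Groups of 2 libraries are too small to look for a single library far from the others.

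Among the genes named, neutrophil genes had most of the large negative differences, with Camp at -9.52, Ltf at -7.87, Ngp at -7.72, S100a9 at -5.37, Cd177 at -4.43, Lcn2 at -4.28 and S100a8 at -3.76. These transcripts stood highest at 12 h after CpG-only particles, in both libraries.

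Genes of DC function and a few others were also below 0. Batf3, a transcription factor of type 1 conventional DC, had -3.10, Ccl22 -3.09, Pvr -2.55, Ebi3 -2.39, Ccr7 -2.30, Cd83 -2.18, Ifi30 -1.88, Ctsh -1.81 and the histone gene H2afz -1.31. Batf3 had 179.7 and 111 CPM at 24 h, against 204 and 289.5 CPM at 12 h after CpG-only particles and 342 and 223 CPM at 24 h, against 73.3 and 36.8 CPM at 12 h after OVA particles.

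Positive differences were found for interferon genes, with Iigp1 at 1.54, Tgtp1 at 1.47, Gbp7 at 1.46, Oas2 at 1.46 and Parp14 at 1.24. The others were the NF-kB pathway gene Ikbke at 1.48, Zfp365 at 4.21, Ly6c1 at 1.51 and the T cell gene Cd2 at 1.16.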

How the results depend on the processing

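For CpG-only 24 h versus 12 h the 719 calls became 460 under DESeq2, of which 459 were shared, and 242 with only the 4 libraries of the comparison, all shared. They were 704 with DESeq2 size factors, 1029 with no filter on low counts, 749 with a minimum mean of 1 CPM and 742 with a replicate block. Leaving out 1 library gave 274 to 1148. OVA-CpG 24 h versus 12 h had 839 calls, 549 under DESeq2 and 293 to 563 without 1 library. The difference of the CpG-only and OVA-CpG time changes had 319 calls, 594 with no filter on low counts and 155 to 744 without 1 library. Same-numbered libraries of the CpG-only groups did not deviate together (correlation -0.05), so the numbers were not treated as pairs. At 24 h, those after CpG-only and OVA particles did so weakly, with a correlation of 0.15, above the threshold of 0.1 used here. The interaction, which uses both groups, was also fitted without pairs. The cause of these shifts was not tested.

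Of the 73 called genes among 94 followed, 56 stayed called under DESeq2, 72 with DESeq2 size factors, 71 with the replicate block and 36 with only the 4 libraries. In that last fit 4 of 23 interferon-gamma-induced, 1 of 35 type I interferon and 4 of 20 T cell genes were called higher. There 8 of 10 neutrophil and 7 of 13 monocyte markers were called lower, and no B cell, MHC class II, glycolysis or unfolded protein response gene was called. The number was 51 and 42 without replicate 1 and replicate 2 at 12 h, and 68 and 44 without replicate 1 and replicate 2 at 24 h. The genes that changed sign without 1 library were not called in the fit of all 10 libraries. Their log2 fold changes ranged from -1.05 to 1.23 for Ms4a1, -1.09 to 1.99 for Cd80, -0.25 to 0.29 for Cd86, -0.054 to 0.21 for Ccr7, -1.21 to 1.68 for Il12b and -0.69 to 0.23 for Il15. Totals of 612017 to 1329203 counts leave transcripts with a handful of counts, such as Zbtb46, untested.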
